A study of Rattus norvegicus with 8 samples.

Results

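Fam110c, Serpinb2, Akap12, Sgk1 and Tcim are 5 genes of rat aortic smooth muscle cells that stood out for their response to angiotensin II (Ang II) after an siRNA against the long non-coding RNA Giver. They were chosen from the measured values, either because the Ang II difference was larger in siGiver cells than in control siRNA (siNTC) cells or because it was among the largest of all genes, and because they lie outside the classic families of early response genes. The values that chose them are therefore given as a description, with no test. The 5 genes are read by 6 probe sets, out of 14217 gene symbols and 31099 probe sets on the array.

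The samples were 8 Affymetrix arrays, 2 for each of 4 groups, of primary vascular smooth muscle cells. The cells had been taken from thoracic aortas (male Sprague-Dawley rats) and kept for 2 passages in medium with 10% serum. All cells were transfected for 48 h, with either siNTC or siGiver, and all then received 100 nM Ang II or the same volume of phosphate-buffered saline (PBS) for 3 h. The groups are thus siNTC PBS, siNTC Ang II, siGiver PBS and siGiver Ang II, and every group, controls included, carries an siRNA. The labels give neither the age of the rats nor whether replicate arrays hold separate cultures, so errors and p-values cover the spread among arrays alone, and part of it may be technical. Values are log2 expression values, which can be compared between arrays for 1 probe set but not between probe sets. The smooth muscle markers Acta2, Myh11, Cnn1, Tagln, Smtn, Lmod1, Des and Myocd, 8 of 8, lay above the filter value of 4.81 used here for dim probe sets, with a mean of 14.05 for Tagln. Of 7 measured endothelial markers 6 lay below that value, as did 4 of 8 macrophage markers, among them Ptprc at a mean of 3.35 and Adgre1 at 2.69. Fibroblast markers lay above it for 6 of 6, with Lum at 12.41, and so did 3 of 6 mesothelial and epithelial markers (Msln, Krt8 and Krt18), while Epcam and Cdh1 lay below. Giver's own level was not analysed here, since none of the annotated probe sets carries its name.

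Ang II is a peptide hormone that acts on smooth muscle mainly through a G protein-coupled receptor, raising calcium and activating protein kinase C and the ERK pathway, and within hours it changes the transcripts of many signalling genes. The 5 genes act at different places. Serpinb2 encodes plasminogen activator inhibitor type 2, a serpin that blocks urokinase and tissue plasminogen activator. Sgk1 encodes the serum- and glucocorticoid-regulated kinase, a relative of Akt that is turned over quickly. Akap12, also called gravin or SSeCKS, is a scaffold that holds protein kinases A and C near the membrane and cytoskeleton. Fam110c belongs to a small family of centrosome and microtubule-associated proteins. Tcim encodes a small protein known for binding Chibby, an inhibitor of beta-catenin.

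Upstream sequences are shown first, as a description, and whether they bear on the profiles over the 4 groups was not tested. Sequences came from RefSeq (GRCr8), and 6 windows matched 4 of the 5 genes by symbol, 1 each for Fam110c, Serpinb2 and Akap12 and 3 for Sgk1; Tcim had no match. The 250 bases before each annotated start were searched on both strands, and the first base before the start is -1. Capitals mark matches to TGANTCA in the first 2 sequences and to TATAAA in the other 2. TGANTCA is a loose pattern for the AP-1 site that allows any base at N, where the usual site has C or G. The windows are chr6:53365763-53366012 (plus strand) for Fam110c, chr13:24055771-24056020 (plus strand) for Serpinb2, and, as the 150 bases nearest to 2 of its starts, chr1:24807232-24807381 and chr1:24804832-24804981 (minus strand) for Sgk1. The Serpinb2 and Sgk1 windows lie inside the annotated span of the gene, so they precede a start of 1 transcript and not the outermost end of the gene.
Fam110c: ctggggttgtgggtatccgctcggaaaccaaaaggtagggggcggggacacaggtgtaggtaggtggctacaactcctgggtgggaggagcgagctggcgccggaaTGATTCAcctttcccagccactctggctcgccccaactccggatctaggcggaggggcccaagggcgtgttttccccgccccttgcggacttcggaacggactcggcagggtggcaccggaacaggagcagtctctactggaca
Serpinb2: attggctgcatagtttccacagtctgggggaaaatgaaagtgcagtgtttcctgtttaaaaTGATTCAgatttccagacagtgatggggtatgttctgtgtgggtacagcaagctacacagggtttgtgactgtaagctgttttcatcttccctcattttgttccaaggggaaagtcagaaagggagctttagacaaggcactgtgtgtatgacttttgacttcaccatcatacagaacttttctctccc
Sgk1, first window: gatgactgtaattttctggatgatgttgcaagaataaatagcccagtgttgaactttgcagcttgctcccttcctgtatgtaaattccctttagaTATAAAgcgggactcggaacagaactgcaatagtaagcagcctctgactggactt
Sgk1, other window: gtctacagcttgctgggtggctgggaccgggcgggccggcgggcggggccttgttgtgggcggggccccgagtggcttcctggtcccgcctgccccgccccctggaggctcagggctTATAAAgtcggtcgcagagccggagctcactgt

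Both Fam110c (bases -144 to -138) and Serpinb2 (bases -189 to -183) held the same letters, TGATTCA. They have T at N, so neither match has the letters of the usual AP-1 site. The search for TGANTCA found a match in 2 of the 6 windows of these genes, against 6.34% of all 33469 windows of 250 bases in the table. The match in Fam110c overlaps a match to the TEAD motif GGAATG (bases -148 to -143), which was also present in 1 Sgk1 window and in 12.1% of all windows. TATAAA was present in 2 of the 3 Sgk1 windows (bases -55 to -50 and -33 to -28) and in 12.9% of all. The NFAT core GGAAA was present in 4 of the 6 windows and in 56.9% of all, and neither the CRE core TGACG (18.2% of all) nor the CArG box (1.5% of all) was present in any of the 6. A match is a description of the letters and not of a bound site.

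Fam110c was among the genes whose Ang II difference was most unlike between the siRNA arms. The gene lies on chromosome 6 (GRCr8, bases 53366013 to 53372270) and has 1 probe set, whose mean level was at the 47.6th percentile of all probe sets. Its values were 5.13 and 5.43 log2 in siNTC PBS arrays, 6.32 and 6.49 in siNTC Ang II arrays, 4.63 and 4.54 in siGiver PBS arrays and 7.64 and 7.63 in siGiver Ang II arrays. The 4 groups did not overlap: both siGiver Ang II arrays were highest and both siGiver PBS arrays lowest. With Ang II the level was higher by 1.12 ± 0.10 log2 (standard error of the fit, 2 arrays per group), or 2.17-fold, in siNTC cells, and by 3.05 ± 0.10, or 8.27-fold, in siGiver cells. The siGiver PBS level, 4.59 ± 0.066 (SD, n = 2), lay below the filter value of 4.81. Measured against that value, the Ang II difference in siGiver cells was at least 2.82 log2 (7.07-fold). The difference between the arms was 1.93 ± 0.14, rank 1 of the 11372 genes tested, but with dim values raised to the filter value it was 1.70, rank 3, below Serpinb2 at 1.76.

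Serpinb2 (chromosome 13, bases 24051933 to 24065032) had a similar order of groups. It measured 6.06 and 6.02 log2 in siNTC PBS arrays, 7.26 and 6.96 in siNTC Ang II arrays, 4.99 and 5.10 in siGiver PBS arrays and 7.84 and 7.91 in siGiver Ang II arrays. Again no group overlapped another, and siGiver cells held both the lowest and the highest levels. The Ang II difference was 1.07 ± 0.096 in siNTC cells (2.10-fold) and 2.83 ± 0.096 in siGiver cells (7.09-fold), the latter rank 3 of all genes. The siNTC Ang II arrays were the widest pair for this gene (SD 0.22, n = 2), and the siNTC difference was 0.91 without replicate 1 and 1.22 without replicate 2 of that group. Macrophages are another known source of Serpinb2. The summed linear level of the 8 macrophage markers, 4 of them below the filter value, ranged from 571 to 588 in siNTC Ang II arrays and from 453 to 467 in siGiver Ang II arrays, where Serpinb2 was highest. In PBS it was 506 to 534 in siNTC and 514 to 527 in siGiver arrays. Most of that sum was 1 gene, Cd14, and the other 7 markers summed to 187 to 192 in siNTC Ang II arrays and 166 to 184 in siGiver Ang II arrays. The part of other cell types in the result was not tested. In bulk RNA, fewer cells of a type and less RNA per cell cannot be told apart.

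Sgk1 (chromosome 1, bases 24799391 to 24916886) had overlapping PBS levels in both arms. Its values were 6.95 and 6.84 log2 in siNTC PBS arrays, 7.52 and 7.51 in siNTC Ang II arrays, 6.78 and 6.97 in siGiver PBS arrays and 8.88 and 8.90 in siGiver Ang II arrays. The Ang II groups stood apart from each other and from both PBS groups. The Ang II difference was 0.62 ± 0.069 in siNTC cells (1.54-fold, rank 81 from the top) and 2.01 ± 0.069 in siGiver cells (4.04-fold, rank 13). The difference between the arms was 1.40 ± 0.098.

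Tcim (chromosome 16, bases 74298344 to 74299637) had the largest Ang II difference of the 5 genes in siNTC cells. It measured 7.87 and 8.01 log2 in siNTC PBS arrays, 9.37 and 9.17 in siNTC Ang II arrays, 7.52 and 7.52 in siGiver PBS arrays and 9.71 and 9.61 in siGiver Ang II arrays. No group overlapped another, and the Ang II groups lay close together near the top. The Ang II difference was 1.32 ± 0.079 in siNTC cells (2.51-fold, rank 8) and 2.14 ± 0.079 in siGiver cells (4.40-fold, rank 12). The difference between the arms, 0.81 ± 0.11, was the smallest of the 5 and ranked 47.

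Akap12 (chromosome 1, bases 43135515 to 43225245) differed from the other 4 genes in that its level was not higher with Ang II in siNTC cells, so it had no induction there to be amplified. Its brighter probe set measured 10.26 and 10.33 log2 in siNTC PBS arrays, 10.05 and 10.003 in siNTC Ang II arrays, 10.49 and 10.54 in siGiver PBS arrays and 11.75 and 11.82 in siGiver Ang II arrays. The siNTC Ang II arrays were the lowest and the siGiver Ang II arrays the highest. The Ang II difference was -0.26 ± 0.051 in siNTC cells (rank 262 from the bottom) and 1.27 ± 0.051 in siGiver cells (2.41-fold, rank 44). The dimmer probe set measured 7.50 and 7.60 log2 in siNTC PBS arrays, 7.51 and 7.60 in siNTC Ang II arrays, 7.96 and 7.98 in siGiver PBS arrays and 9.25 and 9.35 in siGiver Ang II arrays. Here the siNTC groups overlapped, with a difference of 0.0027 (95% interval -0.16 to 0.16), and the siGiver difference was 1.33 ± 0.068. The probe sets thus disagreed on whether Akap12 was lower with Ang II in siNTC cells, and the arms differed by 1.53 ± 0.072 with the brighter and 1.33 ± 0.096 with the dimmer probe set.

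**Figure D1:**
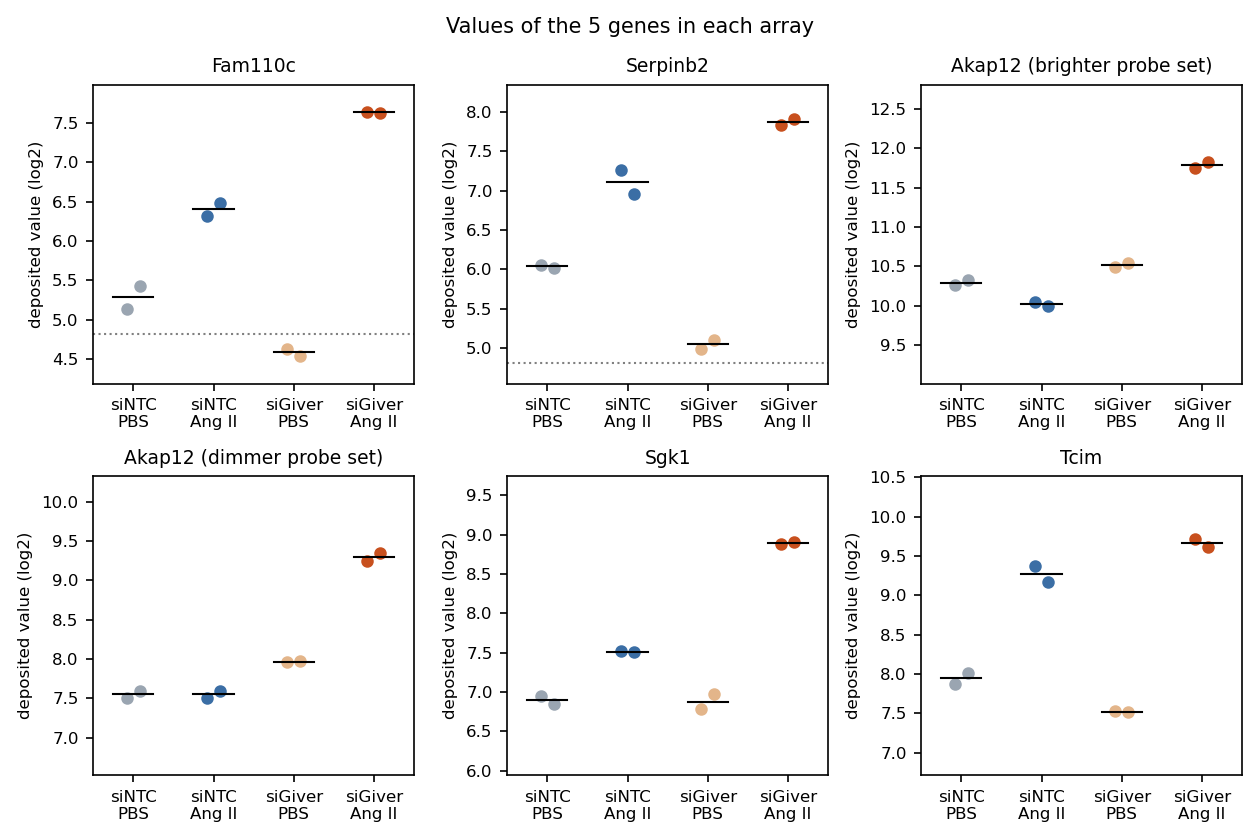
Deposited log2 value of each probe set (vertical axis, each panel spanning the same log2 range) in the 8 arrays, by group; points are arrays, bars are means of 2 arrays, and the dotted line is the filter value of 4.81. The siGiver Ang II arrays are the highest in every panel, and the siGiver PBS arrays of Fam110c lie below the filter value.

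Counted over the 5 genes with the brightest probe set of each, the Ang II and PBS arrays did not overlap in siNTC cells for 5 of 5, with 4 higher and Akap12 lower, whereas the dimmer Akap12 probe set overlapped. With 2 arrays against 2 such separation was common: it held for 52.7% of all genes (28.2% higher), while limma called 6.14% at an adjusted p under 0.05 (3.97% higher, 2.17% lower). In siGiver cells the arrays did not overlap for 5 of 5, all higher, against 62.3% of all genes (26.7% higher), and limma called 16.3% (9.12% higher, 7.19% lower). The difference between the arms was called for 6.22% of all genes (3.35% higher, 2.87% lower in siGiver cells). These comparisons chose the genes, so nothing is read from their counts.

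**Figure D2:**
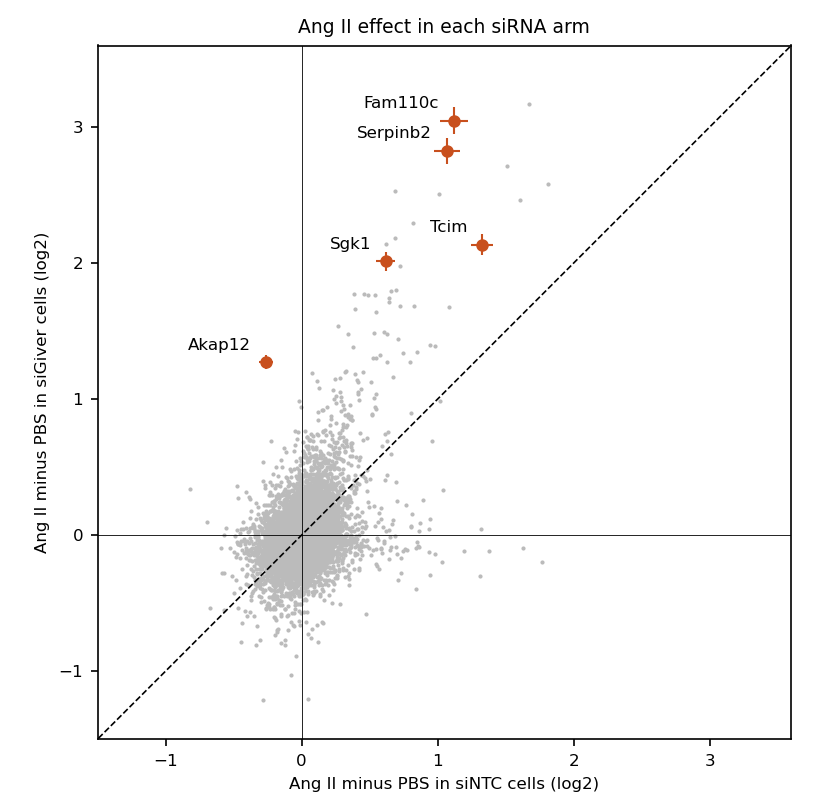
Ang II minus PBS in siNTC cells (horizontal axis, log2) against the same difference in siGiver cells (vertical axis, log2) for 11372 genes (grey) and the 5 genes (orange, with standard errors of the fit); the dashed line marks equal differences. The 5 genes lie above the line, and Akap12, at -0.26 in siNTC cells, is the only one of them to the left of 0.

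The larger Ang II difference in siGiver cells was made up differently in the 5 genes, since it is the siGiver minus siNTC difference with Ang II less that in PBS. In PBS, Fam110c stood at -0.70 ± 0.10 log2 in siGiver relative to siNTC cells (-0.47 against the filter value, as its siGiver PBS level lay below it), Serpinb2 at -0.99 ± 0.096 and Tcim at -0.42 ± 0.079. With Ang II the same genes stood at 1.23, 0.76 and 0.39. The lower PBS level accounts arithmetically for 36.1% of the difference between the arms in Fam110c (27.6% with dim values raised to the filter value), 56.5% in Serpinb2 and 51.8% in Tcim. Sgk1 stood at -0.017 ± 0.069 in PBS and 1.38 ± 0.069 with Ang II, so that 1.22% came from the PBS level. Akap12 stood higher in siGiver cells in PBS too, at 0.22 ± 0.051, and at 1.76 ± 0.051 with Ang II, rank 6 of all genes. These values share arrays with those that chose the genes and carry no test.

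On the linear scale (2 to the power of the deposited value) the ordering was kept. The Ang II difference in siGiver cells was 2.76 times that in siNTC cells for Serpinb2 and 1.68 times for Tcim, against 2.65 and 1.61 times on the log2 scale. For Fam110c it was 3.83 times on the linear and 2.72 times on the log2 scale, and for Sgk1 5.61 and 3.25 times. No such ratio was formed for Akap12, whose siNTC difference was negative or near 0.

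The siRNA effect taken as the mean of its PBS and Ang II values was tested. In this balanced design its sampling error is independent of that of the Ang II differences, but it takes in the siGiver Ang II level, whose height chose the genes, so the passes below are no separate support for it. Akap12 was higher in siGiver cells by 0.99 ± 0.036 log2, or 1.99-fold (limma adjusted p = 2.21e-06), and by 1.08 ± 0.048 with its dimmer probe set (limma adjusted p = 2.38e-05 over all probe sets). Sgk1 was higher by 0.68 ± 0.049, or 1.60-fold (limma adjusted p = 2.59e-05), an average of overlapping levels in PBS and a higher one with Ang II. Fam110c was higher by 0.27 ± 0.071, or 1.20-fold (limma adjusted p = 0.0147), an average of a lower level in PBS and a higher one with Ang II. Serpinb2 did not pass, at -0.12 ± 0.068 (95% interval -0.27 to 0.043, limma adjusted p = 0.196), but did without siNTC Ang II replicate 2 (-0.19, limma adjusted p = 0.0133). Tcim did not pass, at -0.015 ± 0.056 (95% interval -0.15 to 0.12, limma adjusted p = 0.847). In all, 3 of 5 genes passed, all higher, where 52.2% of all genes did (23.1% higher, 29.2% lower), so the share among these genes is near that of all genes.

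**Figure D3:**
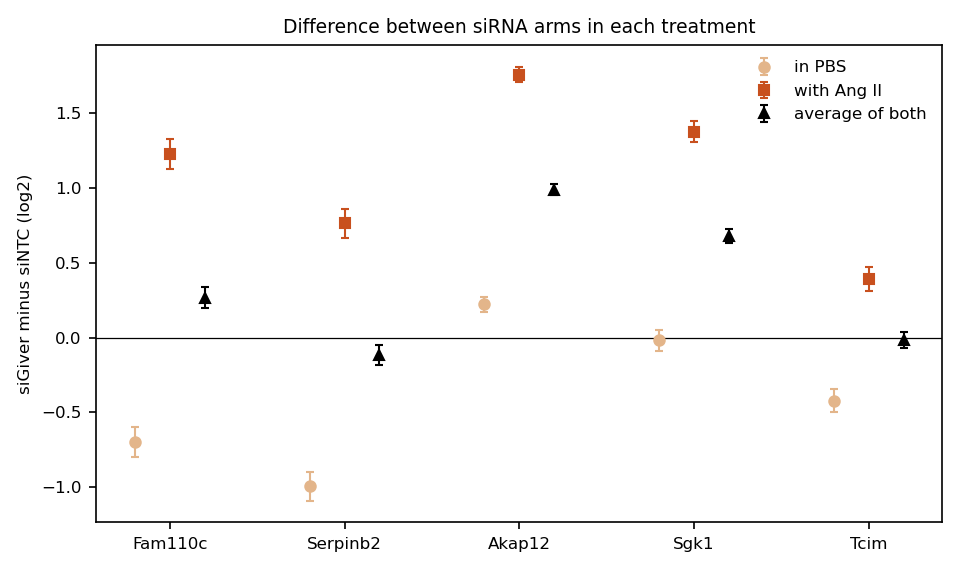
Difference between siGiver and siNTC cells (vertical axis, log2) for each gene in PBS, with Ang II and averaged over both, with standard errors of the fit. With Ang II the 5 genes lie above 0, from 0.39 for Tcim to 1.76 for Akap12, and in PBS they range from -0.99 for Serpinb2 to 0.22 for Akap12.

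The genes differed among themselves in profile. The measure was the root mean square difference of the 4 group means after removing each gene's own mean, and it was 0.21 log2 between Fam110c and Serpinb2, 0.27 between Serpinb2 and Tcim, and 0.91 between Serpinb2 and Akap12. By the same measure over all 11262 other named genes, the closest to Fam110c were Nr4a3 (0.18), Rgs16 (0.20) and Nr4a1 (0.23). Those closest to Serpinb2 were Olr1 (0.20), Nr4a3 (0.25) and Nr4a1 (0.33), and those closest to Tcim were Lmcd1 (0.19), Pcdh18 (0.24) and Nr4a3 (0.26). Nr4a3, an orphan nuclear receptor, was thus among the 3 closest to 3 of the 5 genes. The closest to Sgk1 were Bmp2 (0.0998), Hbegf (0.10) and Dusp6 (0.13), each with an Ang II difference of 1.76 to 1.78 in siGiver cells and a PBS difference between arms of at most 0.091. The closest to Akap12 were Prag1 (0.20), Zswim4 (0.21) and Flnc (0.21), and their PBS levels were higher in siGiver cells by 0.56, 0.53 and 0.45.

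A list of other genes of the plasminogen activation system, in which Serpinb2 acts, also held the coagulation genes F3, Thbd, Tfpi and Tfpi2. Of its 16 genes 12 were measured, and 3 more lay below the filter value. Shares are of this mixed list and not of plasminogen activation alone. With Ang II in siGiver cells 5 rose, F3 among them, and 1, Thbd, fell. That was 50% of the 12 against 16.3% of all genes, with a median of 0.098 log2 against -0.028 for all genes. Plaur, the urokinase receptor, rose by 1.80 ± 0.062 (limma adjusted p = 3.98e-06), Plat, tissue plasminogen activator, by 1.02 ± 0.068 (limma adjusted p = 8.92e-05) and F3, tissue factor, by 0.82 ± 0.045 (limma adjusted p = 3.51e-05). Plau, urokinase itself, stood at 0.15 ± 0.078 and did not pass. In siNTC cells 2 rose and 1 fell, or 25% against 6.14% of all genes, a count of 3 that was 1 without siNTC Ang II replicate 2, and Plaur was up by 0.69 ± 0.062 (limma adjusted p = 0.00109). The test of the difference between the arms passed for Plaur (1.11 ± 0.087), Plat (0.73 ± 0.097) and F3 (0.51 ± 0.064), or 25% of the list against 6.22% of all genes. These 3 calls held when any 1 array was left out, though over the alternatives Plaur reached down to 0.56 for that difference and to 1.02 for Ang II in siGiver cells. The siGiver count of 6 dropped to 3 when either siGiver PBS replicate 1 or siGiver Ang II replicate 2 was omitted. Averaged over both treatments Plau was lower in siGiver cells, at -0.54 ± 0.055, (limma adjusted p = 0.000134) and F3 higher by 0.59 ± 0.032. Of 14 other listed serpins of the same clade 4 were measured, and 4 more lay below the filter value. Of the 4 measured, 0 passed with Ang II in siGiver cells by limma, where 16.3% of all genes did, and 0 had an unadjusted p under 0.05. They ranged from -0.061 to 0.30, the latter Serpinb7 with a standard error of 0.18. A set of 4 genes is too small to compare shares.

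Genes known to respond to glucocorticoids, as Sgk1 does, were measured for 19 of 20 listed genes. With Ang II in siGiver cells 6 rose and 1 fell, or 36.8% against 16.3% of all genes (median 0.15 log2). Errfi1, an inhibitor of EGF receptor signalling, rose by 1.13 ± 0.057 (limma adjusted p = 2.27e-05), Cebpd, a leucine zipper transcription factor, by 0.65 ± 0.047 (limma adjusted p = 0.000123) and Dusp1, a MAPK phosphatase, by 0.56 ± 0.045 (limma adjusted p = 0.00021). Klf15, a zinc finger factor, fell by 0.79 ± 0.056 on the log2 scale (limma adjusted p = 0.000121). In the test of the difference between the arms 3 were higher and 3 lower, or 31.6% against 6.22% of all genes, with Errfi1 at 1.01 ± 0.081 and Klf15 at -0.90 ± 0.080, so the list held calls in both directions. Over the alternatives the Klf15 values reached up to -0.36 in siGiver cells and -0.42 between the arms. The receptor gene Nr3c1 stood at -0.12 ± 0.049 in siGiver cells and did not pass. In siNTC cells 4 rose and 0 fell, or 21.1% against 6.14% of all genes. Cebpd was up there by 0.36 ± 0.047 (limma adjusted p = 0.00542), a call that held in all 15 alternatives. The Glul call was lost in 13 of the 15 and the Hsd11b1 call in 8, both also without the filter. The Mt2A call was lost in 4 of the 15. Averaged over treatments 6 were higher and 10 lower in siGiver cells, or 84.2% against 52.2% of all genes. Errfi1 was higher by 0.61 ± 0.041 and Tsc22d3 stood at -0.45 ± 0.049. The 6 calls between the arms became 3 without siNTC PBS replicate 1, siNTC Ang II replicate 1, siGiver PBS replicate 1 or siGiver Ang II replicate 1, and the siGiver count of 7 became 4 without siGiver Ang II replicate 2.

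**Figure D4:**
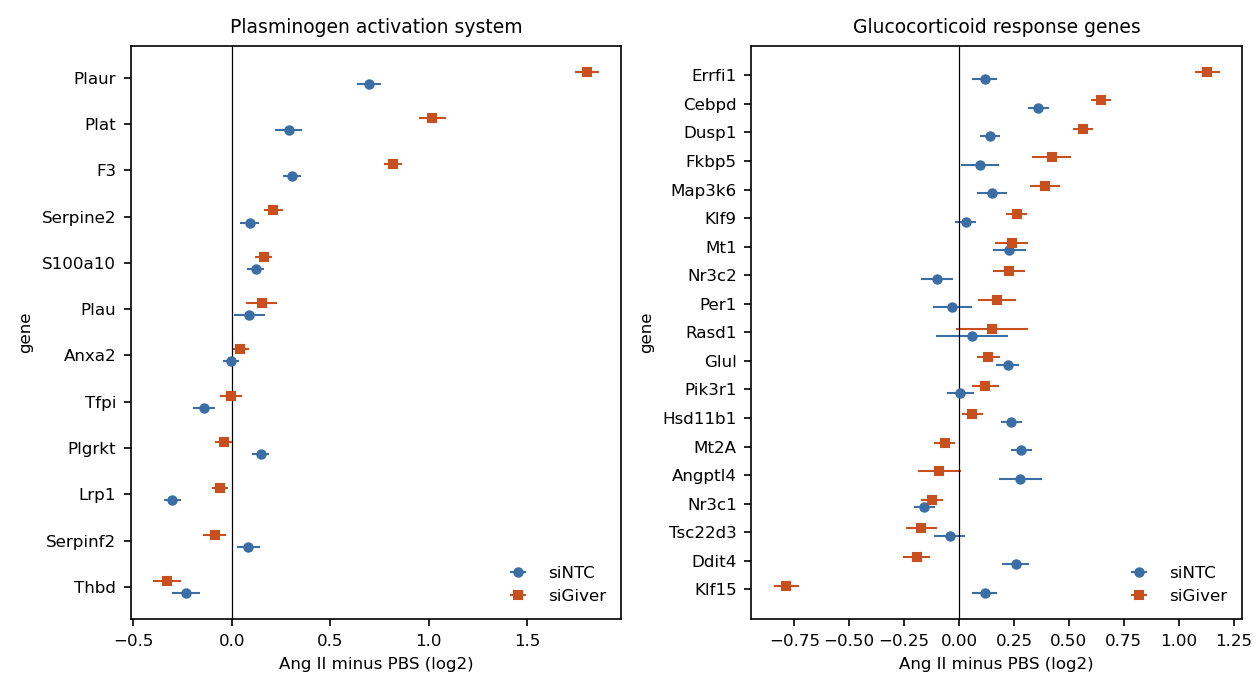
Ang II minus PBS (horizontal axis, log2) in siNTC (circles) and siGiver (squares) cells, with standard errors of the fit. Shown are the measured genes of the plasminogen activation list, which includes the coagulation genes F3, Thbd and Tfpi, and of the glucocorticoid response list. Plaur, Plat and F3 lie farthest right in siGiver cells in the first panel, and Errfi1 (1.13) and Klf15 (-0.79) mark the ends of the second.

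Of 21 measured Sgk kinases, upstream regulators and substrates, 1 rose and 1 fell in siGiver cells, or 9.52% against 16.3% of all genes (median -0.0020). The count of 2 was 1 without any 1 of the siNTC arrays or siGiver PBS replicate 1. The gene that rose, Prr5l, a partner of mTOR complex 2, stood at 0.77 and lost its call in 8 of 15 alternatives (0.50 to 1.05). Foxo3, a forkhead factor that Sgk1 phosphorylates, fell by 0.44 ± 0.055 on the log2 scale with its brightest probe set (limma adjusted p = 0.00199), a call not kept after averaging its probe sets (-0.24). Sgk3 stood at -0.077 ± 0.088 and did not pass. In the test of the difference between the arms 0 of the 21 passed by limma, where 6.22% of all genes did, and 3 had an unadjusted p under 0.05.

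Of 23 measured A-kinase anchoring proteins and protein kinase A genes, the family of Akap12, 2 rose and 2 fell with Ang II in siGiver cells, or 17.4% against 16.3% of all genes. Pakap, an anchoring protein, rose by 0.44 ± 0.058 (limma adjusted p = 0.00249) and Akap7 fell by 0.35 ± 0.045 on the log2 scale (limma adjusted p = 0.00227; up to -0.19 over the alternatives). The largest fall of the list was that of Akap5, at -0.55 ± 0.094 (limma adjusted p = 0.00786), a call lost without siGiver PBS replicate 1. Averaged over treatments 6 were higher and 7 lower in siGiver cells, or 56.5% against 52.2% of all genes. Akap5 had the largest such average, at 0.84 ± 0.066 (limma adjusted p = 3.99e-05). The catalytic subunit gene Prkacb was higher by 0.57 ± 0.037 (limma adjusted p = 1.51e-05) and the regulatory subunit gene Prkar2a stood at -0.41 ± 0.030 (limma adjusted p = 2.57e-05; up to -0.25 over the alternatives).

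Of 10 measured genes of the Fam110 family and the centrosome, Fam110b fell by 0.28 ± 0.053 on the log2 scale with Ang II in siGiver cells (limma adjusted p = 0.0118) and none rose, or 10% against 16.3% of all genes. That call was lost without siGiver PBS replicate 1 or siGiver Ang II replicate 1, with values between -0.33 and -0.23. Fam110a stood at 0.027 ± 0.057 and did not pass. Of 18 measured Wnt and beta-catenin genes, the setting in which Tcim is known, 2 rose and 4 fell in siGiver cells, or 33.3% against 16.3%. The Wnt receptor genes Fzd2 and Fzd1 fell by 0.58 ± 0.047 and 0.42 ± 0.049 on the log2 scale (limma adjusted p = 0.000252 and 0.00144), while Cby1, which encodes Chibby, stood at -0.17 ± 0.064 and Ctnnb1, which encodes beta-catenin, at 0.0051 ± 0.049, and neither passed.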

How the data were processed

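The authors deposited log2 values for each probe set on every array, between 2.06 and 14.6. RMA (background correction, quantile normalization, 1 summary per probe set) and Partek are named, without versions, in the submitters' processing notes. Array medians lay between 6.15 and 6.19 log2, and arrays of a group correlated at 0.998. Arrays have no read depth, and their number, 2 per group, limits the precision.

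Groups were taken from the sample titles. Of 31099 probe sets, 20826 carry 1 symbol in GEO's annotation of the array, updated by gene identifier for 20758 through a RefSeq table (GRCr8). Probe sets whose mean fell under the 30th percentile (4.81) were left out, and the brightest per symbol was kept, leaving 11372 genes. Each of the 5 genes passed. Filtered genes were fitted with limma 3.58.1 in R 4.3.3, with 1 mean per group over all 8 arrays and no replicate block, and p-values were Benjamini-Hochberg adjusted over all genes, with 0.05 as the threshold. Errors marked ± are standard errors of that fit unless called SD.

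The 5 genes and the gene lists were chosen with earlier results of these data known. In each list up to 4 genes with the smallest p in a comparison could be named, with receptors and family members added for their role after their values were seen. The 3 genes of most like profile were named per gene. On data simulated for 11372 genes, the fit recovered 72% of 50 genes changed 1.5-fold for Ang II in siNTC cells, 84% for Ang II in siGiver cells, 64% for the interaction and 98% for the averaged siRNA effect. At 1.25-fold these shares were 36%, 34%, 6% and 66%. Only 50 genes were changed at each fold, from 1.25 to 3, far fewer than were called in the data, so recovery in the data may differ. The replicate numbers were checked for pairing: deviations of same-numbered arrays correlated between -0.17 and 0.095 over pairs of groups. That gave no sign of pairing, but weak correlations cannot exclude that equal numbers mark a shared culture or day. Alternatives were filters, probe set rules, normalization, moderation, the replicate block, smaller fits and leaving out each array.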

Additional observations from a re-analysis of the deposited data

Results flagged for a closer look

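Several genes of the lists above were marked because the Ang II effect differed between siGiver and siNTC cells by the interaction test of limma. At most 2 genes per list were marked, those with the smallest p. Further called genes lay beyond that limit, among them Plat at 0.73, Dusp1 at 0.42 and Mt2A at -0.35. Tcf7 of the Wnt list was also called, at 0.60 (0.51 to 0.70 over the alternatives), opposite in sign to Fzd1 and Fzd2. The Tcf7 call was lost in 5 of 15 alternatives and the Mt2A call in 7 of 15, while the Plat and Dusp1 calls held in all 15. The difference, siGiver minus siNTC on the log2 scale, was 1.11 for Plaur, 0.51 for F3, 1.01 for Errfi1, -0.90 for Klf15, -0.43 for Fzd1, -0.43 for Fzd2 and 0.43 for Pakap. The Plaur, F3, Errfi1, Klf15 and Fzd2 calls held when any 1 array was left out, the Fzd1 call was lost without siNTC Ang II replicate 2 or siGiver PBS replicate 1 (values between -0.48 and -0.38), and the Pakap call was lost in 7 of 15 alternatives (values between 0.36 and 0.50). Groups of 2 arrays were too small to look for an array far from the others.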

How the results depend on the processing

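Results were recomputed without the filter, with a filter at the 50th percentile, with probe set means or single probe sets, with 2 other normalizations, with dim values raised to the filter value, with other moderation, with a replicate block, with smaller fits and without each array. Of 84 recomputed siRNA averages of the 5 genes, 83 kept their side of the threshold, and the exception was Serpinb2 without siNTC Ang II replicate 2. Over these alternatives the average ranged from 0.97 to 1.04 for Akap12, 0.63 to 0.73 for Sgk1, 0.19 to 0.38 for Fam110c (highest adjusted p 0.0498), -0.19 to -0.038 for Serpinb2 and -0.065 to 0.035 for Tcim, which was not called in any. Fam110c lies below the 50th percentile filter and has no value there. These values used the brightest probe set of each gene or the mean of its probe sets. Among them no Ang II or interaction value of the 5 genes changed sign. The dimmer Akap12 probe set was not recomputed by itself. For Ang II in siNTC cells it stood at 0.0027, against -0.26 for the brighter one. Of the 262 values 20 moved by more than the spread between replicates, and so did 2 of 4 ratios on the linear scale.

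Counts over all genes moved more. Genes called for Ang II in siNTC cells numbered 698, and 420 without the filter, 1072 with the 50th percentile filter, 1496 with trended and robust moderation, 422 in a fit of those groups alone and 227 to 526 with 1 array left out. For siGiver cells the count was 1855, and 2802 with trended and robust moderation, 1215 in a fit of those groups alone and 866 to 1741 with 1 array left out. The interaction count was 707, and 467 without the filter, 1490 with trended and robust moderation and 356 to 436 with 1 array left out. The siRNA average was called for 5939 genes and for 5287 to 5464 with 1 array left out. With array medians subtracted, the split for Ang II in siGiver cells was 1164 higher and 561 lower, against 1037 and 818. With the replicate block these 4 counts were 548, 1604, 553 and 5812, and the block changed no call of the 5 genes; the arrays share only a number, and the labels do not pair them. With 1 array left out, the lone array of its group was assumed to vary like the others. Counts per gene list moved by over 1.5 times in 93 of 490 recomputations.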
